A study of Mus musculus with 32 samples.

Results

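The genes of oxidative phosphorylation (OXPHOS) were read from the RNA-seq tables of mouse embryonic stem cells (mESCs) labelled WT, for wild type, and Eed-/-. A gene was taken as a member when its symbol starts with Nduf, Uqcr, Sdh followed by a, b, c or d, Cox4 to Cox8 followed by a, b or c, or Atp5. This rule uses names only, and it took 90 of the 24028 symbols of the tables: 45 of complex I, 4 of complex II, 8 of complex III, 16 of complex IV and 17 of complex V. None of the 90 is among the 268 symbols listed more than once, whose values were summed. Each genotype is represented by 1 library, so the values below have no replicate error, and no test was made. Both libraries carry the strain label TT2, whereas samples of the same genotype in other assays of the study carry the label of another line. The cells were grown alike in medium with serum and leukaemia inhibitory factor on gelatin. EED is the PRC2 subunit that reads methylated H3K27, and the comparison sets RNA levels of the library labelled Eed-/- beside those of WT. With 1 library each, the genotype cannot be told apart from other differences between the cultures.

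OXPHOS is the last stage of respiration. Complexes I, III and IV pass electrons from NADH to oxygen and pump protons across the inner mitochondrial membrane, complex II feeds in electrons from succinate and is also an enzyme of the citrate cycle, and complex V (ATP synthase) makes ATP as protons flow back. Nearly all subunits are encoded in the nucleus and a small set of central ones of complexes I, III, IV and V in mitochondrial DNA. mESCs are known to respire as well as to ferment glucose, and several complex IV subunits have isoforms known from testis, heart or skeletal muscle.

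Values are FPKM, that is, fragments divided by transcript length and by sequencing depth, as the authors deposited them. Where a pair of FPKM values is given, WT comes first and the library labelled Eed-/- second. A change is the difference in log2(FPKM + 1) after quantile normalization, Eed-/- minus WT, which understates the change of weakly expressed genes. A change of 0.58 stands for 1.5-fold on that scale. Only genes whose normalized FPKM averaged 0.1 or more were compared. Of the 90 members, 85 passed this filter: 44 of complex I, 4 of complex II, 8 of complex III, 13 of complex IV and 16 of complex V. The other 5 were Cox6a2, Cox8b, Cox8c and Atp5g2, listed at 0 in both libraries, and Ndufs5, listed at 0.000113 and 8.81e-05.

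Low FPKM values come in steps of single fragments, from which the depth was estimated as 7240000 fragments (WT) and 6470000 (Eed-/-). Eed itself (chromosome 7, 97103166 to 97129493) stood at 63.0 and 70.9, with a change of 0.40, so that its RNA does not mark the genotype and the libraries are called by their labels. The 7 mESC markers were all present, Pou5f1 at 393 and 373 and Nanog at 114 and 176, and their summed FPKM was 1232 and 1451. Of 5 feeder fibroblast markers, Col1a1, Col1a2 and Col3a1 were under 0.5 in both libraries, while Vim stood at 24.9 and 118 and Thy1 at 0.976 and 6.97, and the 5 summed to 26.6 and 126. The summed FPKM was 1.4998 and 3.98 for 6 primitive endoderm markers, 2.39 and 2.78 for 5 trophoblast markers with Elf5 at 0 in both, and 3.84 and 1.09 for 6 heart and skeletal muscle markers with Actc1 and Tnnt2 at 0 in both. In these bulk samples, a change in the make-up of the culture and a change in RNA per cell cannot be told apart.

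Most OXPHOS genes were strongly expressed in both libraries. Of the 90 members, 69 had an FPKM of at least 10 in both and 80 at least 2 in both, and their median FPKM was 72.0 and 58.0. The 3 most abundant were Atp5b, the catalytic beta subunit of the ATP synthase, at 832 and 648, Atp5a1, its alpha subunit, at 648 and 507, and Cox8a, a small membrane subunit of complex IV, at 490 and 551. Each of these lay above 99% of the genes that passed the filter.

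**Figure D1:**
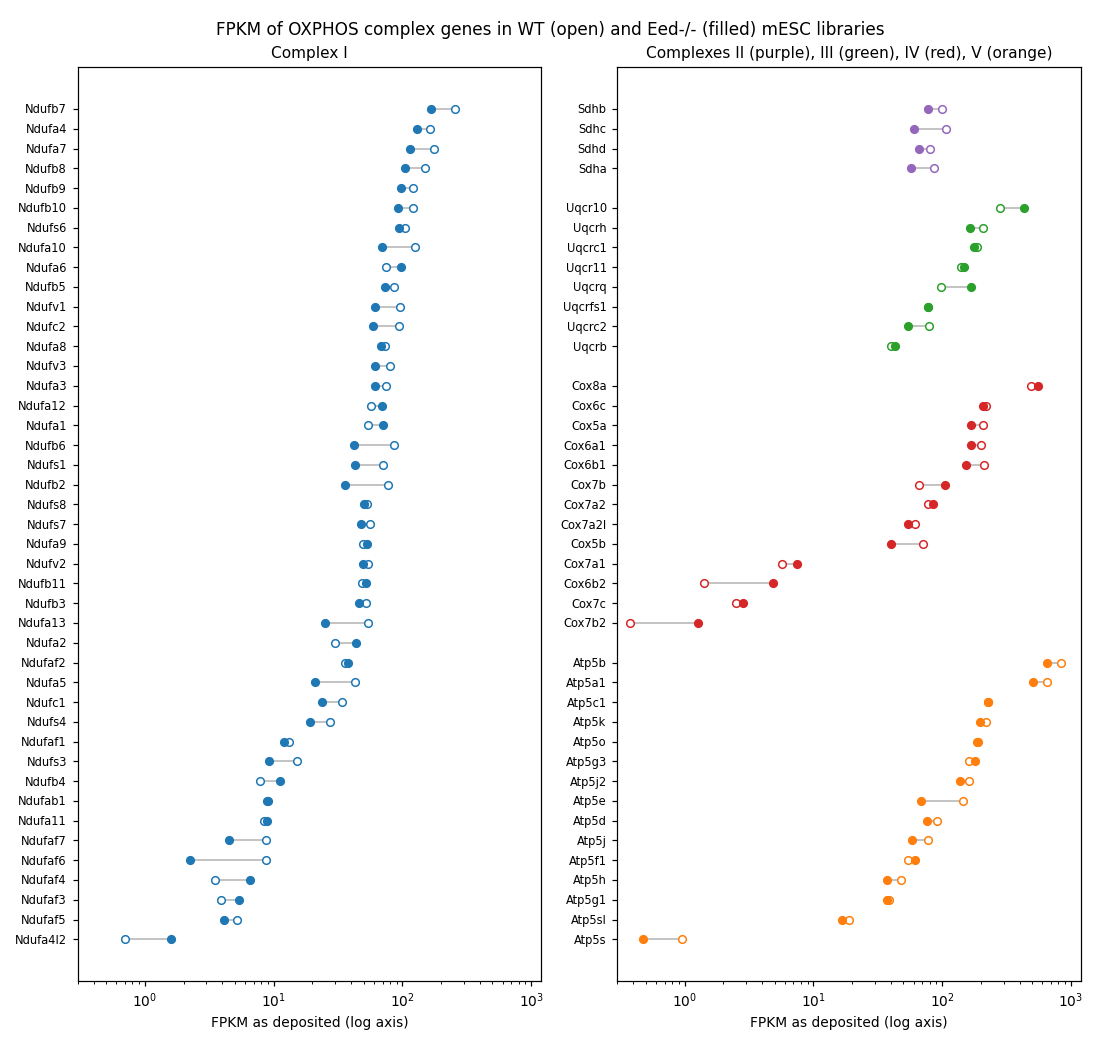
Deposited FPKM (log axis) of OXPHOS genes, 1 per row, in WT (open circles) and in the library labelled Eed-/- (filled circles), with complex I on the left and complexes II to V on the right, each ordered by mean level. Most pairs of circles lie between 10 and 1000, and the members listed at or near 0 in WT (Atp5l, Ndufs5, Cox6a2, Cox8b, Cox8c and Atp5g2) are not drawn.

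As a group, the OXPHOS genes stood where the other genes stood. The median change of the 85 members was 0.00 (order-statistic 95% interval over members, -0.10 to 0.14), beside 0.01 for the 14835 genes tested, with 42 members above 0 and 42 below. In the library labelled Eed-/-, 11 members were higher by 1.5-fold or more (12.9%), against 12.3% of all genes, and 9 were lower by as much (10.6%), against 12.4%. A change of 2-fold or more was seen in 1 member upwards, Cox6b2 at 1.36, and 1 downwards, Ndufaf6 at -1.49, where the shares over all genes were 3.80% higher and 3.98% lower. Among genes whose normalized FPKM averaged 10 or more, 6 of 70 members were 1.5-fold higher and 7 lower, against 11.5% and 12.2% of all such genes, and the median was -0.02 beside 0.01. The 1.5-fold shares of members are near the background, and the 2-fold counts, 1 each way, are too small to compare with it. Without quantile normalization the split was 7 higher and 17 lower, where 9.18% of all genes were higher and 16.4% lower, and the members' median was -0.22 beside -0.09 for all genes and -0.18 for all genes at 10 or more. The 9 lower members were again among the 17, whereas Ndufa1, Ndufa2, Ndufa6 and Ndufb4 were no longer among the higher ones.

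The medians of the complexes were unequal, but the ranges of their members overlapped, and no difference between complexes was tested. Medians were -0.03 for complex I, -0.22 for complex II, 0.26 for complex III, 0.22 for complex IV and -0.0016 for complex V. Order-statistic intervals over members were -0.31 to 0.10 for complex I and -0.29 to 0.995 for complex III. They were -0.10 to 0.75 for complex IV and -0.15 to 0.21 for complex V. These intervals describe the spread over genes of the same pair of libraries and are not a test. Complex II, with 4 members, has none. The summed FPKM was 2931 and 2262 for complex I, 373 and 263 for complex II, 1110 and 1264 for complex III, 1615 and 1550 for complex IV, and 2916 and 2442 for complex V. After normalization these sums differed by -0.14, -0.27, 0.41, 0.17 and -0.02 in log2. The rule does not take Cox4i1, the main form of subunit 4 of complex IV, listed at 774 and 254 (-1.36). Its values are not in the sum or median of complex IV, which therefore describe the named members and not the whole complex. The sign of every complex's median held with the values as deposited, where complex III came to 0.04 and complex IV to 0.14.

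**Figure D2:**
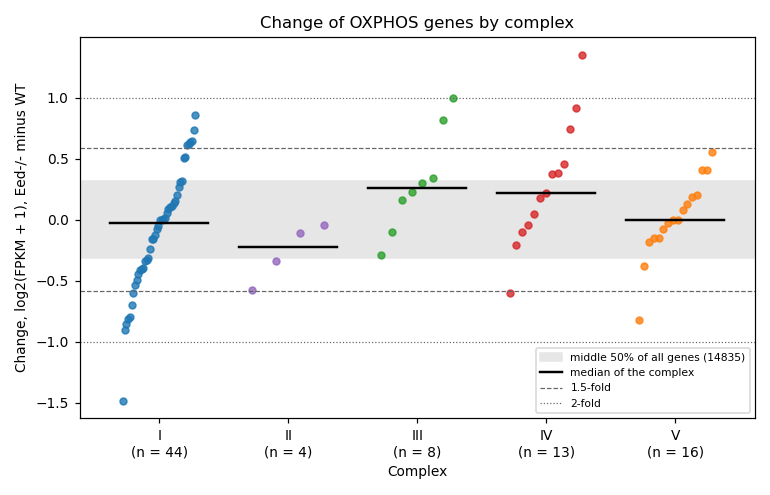
Change in log2(FPKM + 1), Eed-/- minus WT, of each of the 85 members by complex, with the number of members under each complex, the median of the complex as a bar and the middle 50% of the 14835 genes tested as a grey band. Dashed lines mark 1.5-fold and dotted lines 2-fold, and only Cox6b2 and Ndufaf6 lie beyond 2-fold, with Uqcrq at 0.995 just inside.

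Complex I, the NADH dehydrogenase, had 6 members at least 1.5-fold higher and 7 lower among its 44. These are 13.6% and 15.9%, near the 12.3% and 12.4% of all genes. Its 7 nuclear core subunits, which hold the NADH site and the iron-sulphur clusters, had a median of -0.41, with 5 of 7 below 0 and none past 1.5-fold. Ndufs1, the large subunit with several of those clusters, was listed at 70.5 and 42.8 (a change of -0.49). For Ndufv1, which binds NADH, the values were 95.0 and 60.7 (-0.41), and for Ndufs3 they were 15.2 and 9.15 (-0.54). Closer to the centre of all genes were Ndufs7 at 56.1 and 47.3 (-0.01), Ndufv2 at 54.2 and 49.2 (0.09) and Ndufs8 at 53.4 and 50.004 (0.14). Ndufs1 lies on chromosome 1, for which the median of other genes is given further on.

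The 29 members counted as accessory subunits of complex I that passed the filter had a median of -0.05. Past 1.5-fold were 4 higher (13.8%) and 5 lower (17.2%), against 12.3% and 12.4% of all genes. Accessory subunits surround the core. Ndufa4 is counted here by its prefix, although it is known as a subunit of complex IV. Among the most abundant were Ndufb7 at 256 and 168 (-0.39), Ndufa4 at 163 and 131 (-0.07) and Ndufa7 at 177 and 115 (-0.34). Lower ones were Ndufb2 (chromosome 6, 39542573 to 39553381) at 77.4 and 35.8 (-0.90), Ndufa13, also known as GRIM-19, at 54.0 and 25.2 (-0.85), Ndufa5 at 42.7 and 20.9 (-0.81), Ndufb6 at 86.6 and 42.2 (-0.80) and Ndufa10 at 125 and 69.0 (-0.60). Higher ones were Ndufa2 at 30.0 and 43.5 (0.74), Ndufa6 at 74.4 and 98.1 (0.65), Ndufa1 at 54.0 and 70.8 (0.62) and Ndufb4 at 7.87 and 11.2 (0.61). Subunits of the same complex thus lay on both sides of the 1.5-fold line. Counting error alone gives Ndufb2 an interval of -1.34 to -0.48 and Ndufa6 one of 0.38 to 0.92, from the exact binomial interval on recovered fragments. Exons of Ndufb2 overlap those of Adck2 on the same strand, so that reads of the pair could be shared out differently.

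The 7 assembly factors named Ndufaf, which help to build complex I and are not part of it, were expressed at lower levels than most subunits, with a median FPKM of 8.71 and 5.41. Ndufaf6 (chromosome 4, 10978192 to 11003352) was listed at 8.71 and 2.23, with the lowest change of all members at -1.49 (counting interval -2.32 to -0.74). Ndufaf7, a methyltransferase, was at 8.79 and 4.52 (-0.70). The opposite direction was seen for Ndufaf4 at 3.49 and 6.55 (0.86, counting interval 0.53 to 1.198). The least abundant others were Ndufaf3 at 3.87 and 5.41 (0.51) and Ndufaf5 at 5.20 and 4.13 (-0.16). The median of the 7 was 0.0030, so these factors did not share a direction.

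All 4 subunits of complex II, the succinate dehydrogenase, were lower in the library labelled Eed-/-, none by 1.5-fold. Sdha, the flavoprotein, was at 86.0 and 57.5 (-0.34), and Sdhb, the iron-sulphur subunit, at 99.1 and 77.9 (-0.11). The membrane anchors were Sdhc at 108 and 60.9 (-0.58, just short of 1.5-fold) and Sdhd at 80.015 and 66.5 (-0.04). Complex II is the only one of the 5 with no subunit encoded in mitochondrial DNA. Without Sdhc, which lies on chromosome 1, its median was -0.11.

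In complex III, the cytochrome bc1 complex, 6 of 8 members were above 0, and the largest values came from its small subunits. Uqcrq (chromosome 11, 53241424 to 53244333), a small subunit next to cytochrome b, was listed at 98.0 and 167, and its change of 0.995 lay just under 2-fold (counting interval 0.70 to 1.29). Uqcr10 (chromosome 11, 4601976 to 4604345), also a small membrane subunit, was at 280 and 431 (0.81, counting interval 0.65 to 0.98), and 1 near-identical copy of it lies elsewhere in the genome. The other small subunits were Uqcr11 at 140 and 147 (0.34), Uqcrb at 39.8 and 42.9 (0.30) and Uqcrh at 208 and 165 (-0.10). These also have near-identical copies elsewhere, 2 for Uqcr11, 3 for Uqcrb and 1 for Uqcrh. The large core proteins were Uqcrc1 at 188 and 177 (0.16) and Uqcrc2 at 78.9 and 54.8 (-0.29), and the Rieske iron-sulphur protein Uqcrfs1 was at 77.4 and 77.9 (0.23). The large subunits thus lay within 0.30 of 0, and both members past 1.5-fold are small ones on chromosome 11, whose other genes at 10 or more had a median of 0.04.

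Complex IV, cytochrome c oxidase, had 3 members at least 1.5-fold higher and 1 lower among 13. These are 23.1% and 7.69%, against 12.3% and 12.4% of all genes, and the counts are too small to compare. After Cox8a, the most abundant members were Cox6c at 217 and 208 (0.18) and Cox5a at 209 and 167 (-0.10). Cox7b (chromosome X, 103211039 to 103217789), a small membrane subunit, was at 66.3 and 106 (0.92, counting interval 0.73 to 1.10). Cox5b, which binds zinc, was at 70.6 and 40.0 (-0.60). Cox7c, a subunit of the complex in all tissues, was listed at only 2.50 and 2.86 (0.22). Cox7c stands for about 6.53 and 6.65 fragments, and its counting interval ran from -1.05 to 1.49.

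Isoforms offered a comparison within complex IV. Cox6b2, the isoform known from testis, stood at 1.42 and 4.87 (1.36), against 211 and 153 (-0.21) for the general isoform Cox6b1. Its counting interval was 0.04 to 2.96, from about 3.83 and 11.7 fragments. Cox7b2, a further isoform known from testis, was at 0.374 and 1.27 (0.75) against the values of Cox7b given above, and its counting interval of -0.91 to 3.34 includes 0. Cox7a1, known from heart and muscle, was at 5.72 and 7.40 (0.46) against 77.2 and 85.6 (0.38) for Cox7a2 and 62.0 and 54.5 (0.05) for Cox7a2l, a factor that joins complexes III and IV. Cox6a1 was at 202 and 168 (-0.04) where Cox6a2 was listed at 0, as were Cox8b and Cox8c beside Cox8a. In each of these groups, a general form was the more abundant in both libraries. Under the prefix of complex I, Ndufa4l2, known for its induction in low oxygen, was at 0.702 and 1.58 (0.64, counting interval -0.38 to 1.81) beside Ndufa4. Both of these are known as subunits of complex IV, and counting them there left the medians of complexes I and IV at -0.03 and 0.22. Ndufa4l2 was classed with the tissue isoforms here, although it is described above by its induction and not by a tissue. Of the 7 so classed, the 4 that passed the filter were all above 0, with a median of 0.69. However, all 4 had an FPKM under 10 in both libraries, and only the counting interval of Cox6b2 lay above 0.

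The promoters of these isoform pairs are shown because they differ in CpG dinucleotides, the sites of DNA methylation. They are RefSeq sequences of GRCm38.p6, from 250 bases before to 50 after the transcript start, in the gene's orientation, with CpG in capitals. Positions here are on GRCm38.p6, whereas gene positions elsewhere are on mm9.
Cox6b1 (chr7:30626065-30626364, minus strand, general form, 17 CpG): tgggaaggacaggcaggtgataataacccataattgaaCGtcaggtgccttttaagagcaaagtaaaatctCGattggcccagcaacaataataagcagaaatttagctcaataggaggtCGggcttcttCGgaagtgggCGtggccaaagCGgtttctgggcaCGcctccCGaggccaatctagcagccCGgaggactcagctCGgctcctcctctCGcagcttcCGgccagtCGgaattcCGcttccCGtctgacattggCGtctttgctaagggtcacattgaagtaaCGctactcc
Cox6b2 (chr7:4753045-4753344, minus strand, testis form, 10 CpG): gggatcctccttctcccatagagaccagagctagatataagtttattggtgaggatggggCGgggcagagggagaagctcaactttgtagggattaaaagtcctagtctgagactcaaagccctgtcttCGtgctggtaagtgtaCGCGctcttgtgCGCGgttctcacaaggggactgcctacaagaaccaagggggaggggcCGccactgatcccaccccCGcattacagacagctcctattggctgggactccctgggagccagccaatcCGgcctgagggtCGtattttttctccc
Cox7a2 (chr9:79759804-79760103, minus strand, general form, 20 CpG): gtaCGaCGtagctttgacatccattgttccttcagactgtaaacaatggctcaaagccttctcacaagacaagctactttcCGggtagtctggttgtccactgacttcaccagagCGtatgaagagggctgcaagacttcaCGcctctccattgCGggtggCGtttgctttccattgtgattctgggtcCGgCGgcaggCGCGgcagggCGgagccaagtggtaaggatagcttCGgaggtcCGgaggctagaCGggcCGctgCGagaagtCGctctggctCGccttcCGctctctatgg
Cox7a1 (chr7:30183921-30184220, plus strand, heart and muscle form, 7 CpG): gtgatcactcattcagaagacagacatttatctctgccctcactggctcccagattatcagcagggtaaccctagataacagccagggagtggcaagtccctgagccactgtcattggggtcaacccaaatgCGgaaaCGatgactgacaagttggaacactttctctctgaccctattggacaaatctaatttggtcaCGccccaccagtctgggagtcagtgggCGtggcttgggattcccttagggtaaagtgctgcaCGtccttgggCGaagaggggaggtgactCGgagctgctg
Cox7b (chrX:106015450-106015749, plus strand, general form, 5 CpG): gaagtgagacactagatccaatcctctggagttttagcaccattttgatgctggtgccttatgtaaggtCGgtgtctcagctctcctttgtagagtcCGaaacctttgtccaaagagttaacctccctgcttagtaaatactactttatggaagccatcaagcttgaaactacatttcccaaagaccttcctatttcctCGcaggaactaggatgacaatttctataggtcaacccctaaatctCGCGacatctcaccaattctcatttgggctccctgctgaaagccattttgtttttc
Cox7b2 (chr5:71548156-71548455, minus strand, testis form, 10 CpG): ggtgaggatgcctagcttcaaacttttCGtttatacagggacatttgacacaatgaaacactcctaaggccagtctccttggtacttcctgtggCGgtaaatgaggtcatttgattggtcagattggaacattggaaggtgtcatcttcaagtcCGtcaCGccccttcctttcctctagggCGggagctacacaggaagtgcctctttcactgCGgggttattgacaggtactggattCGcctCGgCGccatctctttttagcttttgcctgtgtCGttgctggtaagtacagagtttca
In the Cox6b and Cox7a pairs the general form holds more CpG, and in the Cox7b pair the testis form does. Over all 76 members matched to a promoter, with 82 promoters, the median was 20 CpG (2 to 43), beside 7 for all 32851 promoters of the table. Tissue isoforms with a promoter in the table were Cox6b2, Cox7a1, Cox7b2 and Cox8b, with 2 to 10 CpG, and the other 78 member promoters held 5 to 43.

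Letters of 3 motifs known from OXPHOS promoters were searched on both strands. The NRF1 letters GCGCATGCG stood in 10 of the 82 member promoters (12.2%) and in 1.75% of all promoters. The YY1 letters AAGATGGC stood in 12 (14.6%), of 11 members, and in 2.75% of all. The ETS letters CCGGAAGT, bound by GABPA among others, stood in 5 (6.10%) and in 3.89% of all. None of these motifs contains another. The member promoters also held more CpG, and the part of base composition in these shares was not tested. An example with NRF1 and ETS letters and one with YY1 letters are printed with these letters in capitals. The NRF1 and YY1 matches are on the opposite strand, so their capitals are the reverse complements of the letters given.
Uqcr11 (chr10:80406772-80407071, minus strand, NRF1 and ETS letters): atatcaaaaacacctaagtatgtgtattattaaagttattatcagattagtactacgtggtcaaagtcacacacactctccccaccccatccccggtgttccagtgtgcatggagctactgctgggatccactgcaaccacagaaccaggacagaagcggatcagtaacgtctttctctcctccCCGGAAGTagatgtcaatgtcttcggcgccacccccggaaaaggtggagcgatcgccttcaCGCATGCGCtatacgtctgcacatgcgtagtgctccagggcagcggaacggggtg
Atp5f1 (chr3:105959214-105959513, minus strand, YY1 letters): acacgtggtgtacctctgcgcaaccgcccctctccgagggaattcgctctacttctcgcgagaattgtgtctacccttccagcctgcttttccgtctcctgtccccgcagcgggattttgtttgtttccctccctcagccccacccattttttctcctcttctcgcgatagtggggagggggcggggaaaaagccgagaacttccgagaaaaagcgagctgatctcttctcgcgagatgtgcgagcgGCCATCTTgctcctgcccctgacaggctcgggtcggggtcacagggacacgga
In Uqcr11 the NRF1 letters begin 5 bases before the transcript start, and in Atp5f1 the YY1 letters begin 3 bases before it. The 9 members with NRF1 letters that passed the filter ranged from -0.16 to 0.86 with a median of 0.16 (1 of them, Ndufaf4, past 1.5-fold), the 11 with YY1 letters from -0.33 to 0.41 with a median of -0.0054, and the 5 with ETS letters from -0.54 to 0.38 with a median of -0.10. A match is a description of letters and not a site of binding.

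Complex V, the ATP synthase, had no member at least 1.5-fold higher and 1 lower (6.25%) among 16, against 12.3% and 12.4% of all genes. These counts are too small to compare with those shares. Changes of its members ran from -0.82 to 0.56, the upper end being Atp5l, which was listed at 0 in WT. The catalytic head was represented by Atp5b (-0.08), Atp5a1 (-0.15) and the central stalk subunit Atp5c1, at 227 and 226 (0.19). Atp5e (chromosome 2, 174286573 to 174289606), the small epsilon subunit of the stalk, was at 145 and 68.9 (-0.82, counting interval -1.16 to -0.50). Of the 3 genes for subunit c, which forms the proton-carrying ring, Atp5g3 was at 162 and 182 (0.41) and Atp5g1 at 38.6 and 37.2 (0.13), and Atp5g2 was listed at 0 in both libraries. Atp5l, a membrane subunit with 10 near-identical copies elsewhere in the genome, was listed at 0 and 0.462, the latter about 0.990 of a fragment. The remaining low values were those of Atp5sl at 18.9 and 16.8 (-0.0032) and Atp5s at 0.951 and 0.474 (-0.38), which are named after the synthase and are not known as subunits of it.

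**Figure D3:**
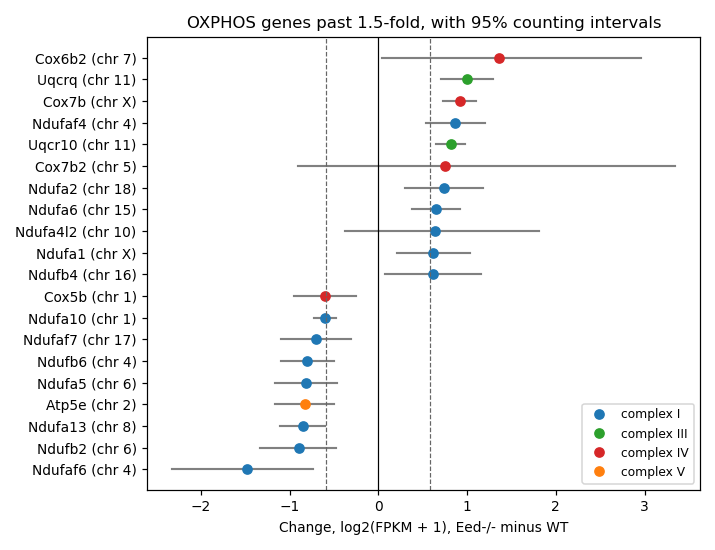
The 20 members whose change in log2(FPKM + 1), Eed-/- minus WT, was at least 1.5-fold (dashed lines), ordered by change and coloured by complex, with chromosomes in brackets and bars for the 95% counting interval. The bars of Cox7b2 and Ndufa4l2 cross 0, and all the others lie on one side of it. They cover counting error only, not the spread between cultures.

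Members near the 1.5-fold line show how much rests on it. Just inside were Ndufb4 (0.61) and Ndufa1 (0.62) above and Cox5b (-0.60) and Ndufa10 (-0.60) below. Just outside were Atp5l (0.56), Ndufa12 (0.52), Sdhc (-0.58) and Ndufs3 (-0.54). The value of Atp5l rests on about 0.990 of a fragment in the library labelled Eed-/- and 0 in WT, and has no counting interval.

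The position of a member on chromosome 1, 8 or X went with its change. In the library labelled Eed-/-, other genes averaging 10 or more in FPKM had a median change of -0.49 on chromosome 1 (280 genes), -0.53 on chromosome 8 (299 genes) and 0.60 on chromosome X (146 genes), against 0.05 on the other chromosomes (4099 genes). On chromosome 1, Ndufa10 (-0.60), Cox5b (-0.60), Sdhc (-0.58) and Ndufs1 (-0.49) were below 0 and Ndufb3, at 52.4 and 45.9, was not (0.06), and the median over the 6 members there was -0.54. On chromosome 8 lie Ndufa13 (-0.85) and Ndufb7 (-0.39). On chromosome X lie Cox7b (0.92), Ndufa1 (0.62) and Ndufb11, at 48.5 and 51.9 (0.31), and their median was 0.62. The medians of the members on chromosomes 1 and X are close to those of the other genes there, while Ndufb3, Ndufa13, Cox7b and Ndufb11 lay about 0.3 or more from the medians of their chromosomes. The part of these chromosome-wide values in the members' changes was not tested.

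**Figure D4:**
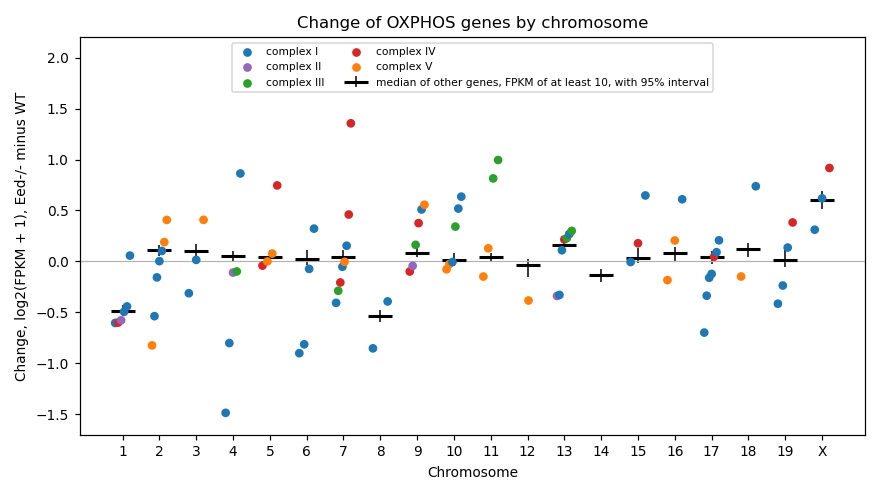
Change in log2(FPKM + 1), Eed-/- minus WT, of the 85 members by chromosome (points, coloured by complex), with the median of all other genes averaging 10 or more in FPKM on that chromosome (black bars, with 95% order-statistic intervals over genes). The black bars lie near -0.5 on chromosomes 1 and 8 and near 0.6 on chromosome X, and the members of these chromosomes lie around them, while Uqcrq and Uqcr10 on chromosome 11 and Ndufb2 and Ndufa5 on chromosome 6 lie away from theirs.

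With chromosomes 1, 8 and X left out, 74 members remained, 9 of them 1.5-fold higher and 6 lower, where 12.01% of all genes on the remaining chromosomes were higher and 10.5% lower. Their median was 0.01, beside 0.03 for the 12238 other genes there, without a minimum of 10. Complex medians were then -0.0055 for complex I (36 members, 5 higher and 5 lower), -0.11 for complex II, 0.26 for complex III, 0.22 for complex IV and -0.0016 for complex V. The lower members on other chromosomes were Ndufaf6, Ndufb2, Atp5e, Ndufa5, Ndufb6 and Ndufaf7. Ndufb2 and Ndufa5 both lie on chromosome 6, where the other genes had a median of 0.03, and where Ndufa9 was at 49.3 and 52.8 (0.32).

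Transcript length also varied with the change. Members have transcripts of 351 to 3632 bp, and Spearman's rho of change with length over the 85 was -0.26, a description across genes of the same 2 libraries. Those under 600 bp had a median of 0.22 (27 members, 7 higher and 3 lower), those from 600 to under 1000 bp -0.0055 (22 members) and those of 1000 bp or more -0.09 (36 members). The 7 and 3 were 25.9% and 11.1% of their class, against 12.3% and 12.4% of all genes of any length. Length classes were not made over all genes, so a trend of the members cannot be told from a general one. Uqcrq, Uqcr10, Uqcr11 and Cox6b2 are in the first class and Cox7b, at 1001 bp, is in the last, and the part of length in these values was not tested. Near-identical copies, at 80% coverage and 95% identity, were found for 20 members, among them Atp5l, Atp5g2, Ndufs5, Uqcr10 and Cox5b, and reads of such genes could be shared among copies. Of the 18 with a copy that passed, 1 was higher (Uqcr10) and 1 lower (Cox5b), 5.56% each way, and the median of the 18 was 0.12.

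Other genes of the same pathway were read from lists. None of the 13 mitochondrially encoded subunits is in the tables, so that the nuclear subunits could not be set beside them. Of 11 subunits and carriers whose symbols the rule does not take, 1 was 1.5-fold higher (9.09%) and 4 lower (36.4%). Over all genes the shares were 12.3% and 12.4%, and the median of the 11 was -0.16. Cox4i1, the main form of subunit 4 of complex IV, lies on chromosome 8 and was at 774 and 254 (-1.36), a lower change than that of any complex IV member. Its isoform Cox4i2 was at 2.00 and 0.282 (-1.19). The testis form of cytochrome c, Cyct, was at 6.56 and 20.01 (1.64), while the general form Cycs was listed at only 0.240 and 0.269 (0.03). Why the general form is listed so low was not tested. Cytochrome c1 of complex III, Cyc1, was at 110 and 108 (0.24). Atpif1, the inhibitor of the ATP synthase, was at 228 and 124 (-0.64), and 2010107E04Rik, a small protein of the synthase, at 137 and 68.6 (-0.75).

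Assembly factors outside the rule (29 of 32 in the tables) had a median of -0.03, with 4 higher and 4 lower past 1.5-fold. Each 4 is 13.8% of them, near the 12.3% and 12.4% of all genes. The copper chaperones of complex IV were Sco2 at 1.07 and 4.39 (1.45) and Sco1 at 11.7 and 18.2 (0.76), whereas Surf1, also of complex IV, was at 13.8 and 5.12 (-1.13). Tmem126b, for complex I, was at 4.02 and 7.25 (0.83), and Ecsit and Timmdc1, also for complex I, were at 38.5 and 20.5 (-0.70) and at 10.7 and 5.55 (-0.70). The 14 citrate cycle enzymes had a median of 0.13. Of these, 2 were higher (14.3%), Idh3g on chromosome X (0.82) and Suclg2 (0.67), and 1 was lower (7.14%), Fh1 on chromosome 1 (-0.59). Of 12 regulators of mitochondrial genes, Ppargc1a was listed at 0 in both libraries, and the median of the other 11 was -0.10. Yy1 was at 36.2 and 15.2 (-1.02), Gabpa at 30.6 and 41.9 (0.65) and Esrra at 3.48 and 5.63 (0.68), while Nrf1 was at 19.95 and 15.7 (-0.17) and Tfam, which packs mitochondrial DNA, had a change of 0.20.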

How the data were processed

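RNA-seq of WT and Eed-/- mESCs was analysed, with 1 library per genotype. The authors made strand-specific libraries after ribosomal RNA removal, aligned the reads to mm9 with TopHat and deposited FPKM from Cufflinks per gene symbol. The submitters' processing notes name TopHat2 2.0.11 and Cufflinks 2.2.1. The paper's text names another TopHat version.

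Values of repeated symbols were summed, the libraries quantile-normalized, and changes taken in log2(FPKM + 1) for genes whose normalized FPKM averaged 0.1 or more. With 1 library per genotype there was no test. The members and lists were chosen with earlier results of these data known.

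Named with values are all of complex II, the 3 highest and 3 lowest members of each other complex, members past 1.5-fold or on chromosomes 1, 8 and X, paralog groups and core subunits of complex I, of which 1 is not reported here. Genes of the other lists were chosen after their values were seen.

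Depth came from low values of genes with 1 transcript, 1000 bp or longer and shortened by 180 bp, where 78.2% of 1026 WT values and 79.0% of 1132 Eed-/- values were within 0.1 of a whole fragment. With several transcripts, a gene's fragment number is approximate, and intervals cover counting error only. Positions and lengths came from GENCODE vM1 on mm9, with 87 members matched by symbol and 3 by synonym, and copies from minimap2 2.31. The scripts, with Python 3.11.15, numpy 2.4.6, pandas 2.3.3 and scipy 1.17.1, were tested on simulated data. ChIP-seq, MethylC-seq and 4C-seq samples were not used here.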

Additional observations from a re-analysis of the deposited data

How the results depend on the processing

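The median of all members stayed within 0.06 of 0 under 9 of 10 alternatives. With the FPKM as deposited it was -0.22, and that of complex V was -0.20. Of the 85 members, 7 were then at least 1.5-fold higher, 17 lower and 5 at least 2-fold lower. The shares over all genes were 9.18%, 16.4% and 5.40%. In that setting the libraries are not put on a common scale, and the changes of Cox7b, Uqcr10 and Ndufa10 were 0.67, 0.62 and -0.85. With a pseudocount of 0.1, 6 of 85 members were at least 2-fold higher, where 11.4% of all genes were. With structural subunits only, 7 of 71 were 1.5-fold higher, against 12.3% of all genes. Then 0 were 2-fold higher and 0 were 2-fold lower, against 3.80% and 3.98%, because Cox6b2 and Ndufaf6 are left out. Median-ratio scaling gave a median of -0.06 with 9 higher and 10 lower, where 12.6% and 11.9% of all genes were. The median of complex V, -0.0016, was 0.04 with structural subunits only. The sign of the other complexes' medians and of each member past 1.5-fold held under every alternative that kept it. Counting Ndufa4 and Ndufa4l2 with complex IV was chosen after seeing the data. No paired analysis was possible because each genotype has 1 library, which also leaves no replicate to leave out.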
